A study of Rattus norvegicus with 39 samples.

Results

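Small nuclear RNA (snRNA) transcripts were examined in rat sperm as the rows of the deposited noncoding RNA (ncRNA) table whose name ends in snRNA and whose counts add up to at least 39 over the 39 libraries. The rule kept 57 of 111 snRNA rows, in a table of 1563 ncRNA transcripts. Many of these transcripts had exactly the same count in every library, so rows with identical counts were treated as 1, which left 33 distinct count patterns. The patterns just inside the limit held 40, 41 and 80 counts in all, and those just outside held 33, 19 and 17. The table names these rows only by Ensembl transcript and gene identifiers, and 0 of the 57 matched a gene symbol in the reference table, so no pattern could be assigned to a kind of snRNA.

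The snRNAs are short, stable nuclear RNAs that bind proteins to form the spliceosome, the machine that removes introns from pre-mRNA. Mammalian genomes carry many near-identical copies and pseudogenes of each kind, so a short read often fits several copies at once. Spermatozoa have largely shut down transcription and have shed most of their cytoplasm, and the RNA they hold is rich in small RNAs and fragments of longer ones.

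The samples were spermatozoa from the cauda epididymis of wild-type male Fischer rats, 11 to 12 weeks old per the labels. The males were gavaged once a day for 5 days with ethylene glycol monomethyl ether (EGME), an industrial solvent known to damage developing germ cells in the testis, and were left untreated for 5 weeks. The control group EGME0 received the water vehicle (n = 10), and the groups EGME50, EGME60 and EGME75 received 50, 60 and 75 mg/kg/d (n = 10, 9 and 10). Each library held the sperm RNA of 1 male, and the libraries were run on 13 chips of 3 libraries each. The question was whether snRNA in sperm differed between the doses and the control.

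The 4 deposited tables together held 244869 to 24308152 counts per library. Mitochondrial rRNA (Mt_rRNA, 2 rows) took up 98.4% of all ncRNA counts and was set aside, which left 421 to 46395 distinct ncRNA counts per library (median 7345). The median share of Mt_rRNA was 99.5%, 99.0%, 97.6% and 95.8% in EGME0, EGME50, EGME60 and EGME75, with a lowest value of 75.6% in EGME60. The 33 snRNA patterns had 9 to 1130 counts per library (median 191), so most patterns rested on a handful of counts in any 1 male. The shallowest libraries were EGME75 replicate 24 and EGME0 replicate 33, with 421 and 768 ncRNA counts. Levels are given as counts per 10000 scaled ncRNA counts, where scaling is by the trimmed mean of M-values (TMM). In the control group 1 count was worth between 1.08 and 12.7 on that scale, with a median of 3.03. Markers of other cell types moved with dose in the miRNA table. The median share of 5 germ cell miRNAs (miR-34b, miR-34c and miR-449a) was 26.3% of miRNA counts in EGME0 and 13.3% in EGME75. All 5 had counts, and their share ran from 19.8% to 33.1% in EGME0, 11.1% to 25.5% in EGME50, 10.9% to 28.1% in EGME60 and 6.47% to 22.1% in EGME75. Of 7 blood cell miRNAs 6 were in the table, and 5 of them had counts in controls; the other, miR-144-3p, was at 0 there. Their summed share ran from 0% to 0.343%, 0.119% to 1.24%, 0.0216% to 2.17% and 0.248% to 4.82% in the same order of groups. For 5 of 5 epithelial miRNAs the ranges were 0.6249% to 1.29%, 0.612% to 3.33%, 0.251% to 3.01% and 1.81% to 4.77%. For 4 of 4 muscle miRNAs they were 0.954% to 3.27%, 0.932% to 4.58%, 1.31% to 11.7% and 1.12% to 9.80%. Each of the 3 lists of other cell types thus had its highest library in a dosed group. The part of these cells in the snRNA results was not tested. In such bulk samples fewer cells of a type and less RNA per cell cannot be told apart.

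The 33 patterns were few in kind. Of the 528 pairs of patterns, 36 had a count similarity (1 minus the Bray-Curtis distance over the 39 libraries) of at least 0.9, and joining such pairs gave 17 families, 12 of them a single pattern. This grouping was chosen after the values had been seen and serves only for description. Family 1 was a single pattern shared by 9 transcripts (represented here by ENSRNOT00000077081, 878 counts). Family 2 held 6 patterns from 9 transcripts with 489 to 582 counts, and family 3 was a pattern shared by 11 transcripts (ENSRNOT00000077425, 561 counts). Family 4 was a single transcript, ENSRNOT00000084988, with 449 counts. Family 5 held 5 single transcripts with 378 to 416 counts, and family 6 held 3 with 306 to 386. The 2 patterns of family 7 had 305 and 370 counts, and the 5 of family 8 had 181 to 238. Counting of members within a family could be split or doubled by the authors' assignment of reads, so they are not separate observations.

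Among the 12 patterns that entered the main test, pairs within a family had a median Spearman correlation of 0.983 across the 39 libraries (18 pairs) after subtracting each group's mean log2 level. The 48 pairs from different families had a median of 0.21, with a range from -0.09 to 0.86. The grouping used the same counts, so this contrast follows from it, and the libraries share depth and scaling.

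As a share of the distinct ncRNA counts without Mt_rRNA, snRNA was a small class in every group. The lowest, median and highest shares were 1.44%, 2.07% and 4.10% in EGME0. In EGME50 they were 1.82%, 3.59% and 8.99%, and in EGME60 they were 0.381%, 2.53% and 7.66%. In EGME75 they were 1.82%, 2.29% and 4.25%. All groups overlapped, and the highest shares stood in EGME50 replicates 36 and 20 and in EGME60 replicate 5. Set against the sum of the 4 tables, the picture was different. The median was 13.6 snRNA counts per 1000000 in EGME0 (range 4.97 to 30.3). It was 23.96 in EGME50 (6.43 to 151), 31.8 in EGME60 (9.98 to 76.5) and 32.8 in EGME75 (23.2 to 54.9). The lowest EGME75 library lay above 8 of the 10 controls on this scale. Against the RNAcentral table alone the medians were 62.5, 96.4, 90.6 and 79.9 per 1000000 in EGME0, EGME50, EGME60 and EGME75, so the order of the groups depended on what snRNA was set against. The misc_RNA class made up a median of 86.1%, 71.0%, 63.8% and 60.8% of the distinct ncRNA counts without Mt_rRNA, in the same order. The make-up of that denominator thus also differed between the groups. As a sum over the members, the snRNA share was given no test.

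**Figure D1:**
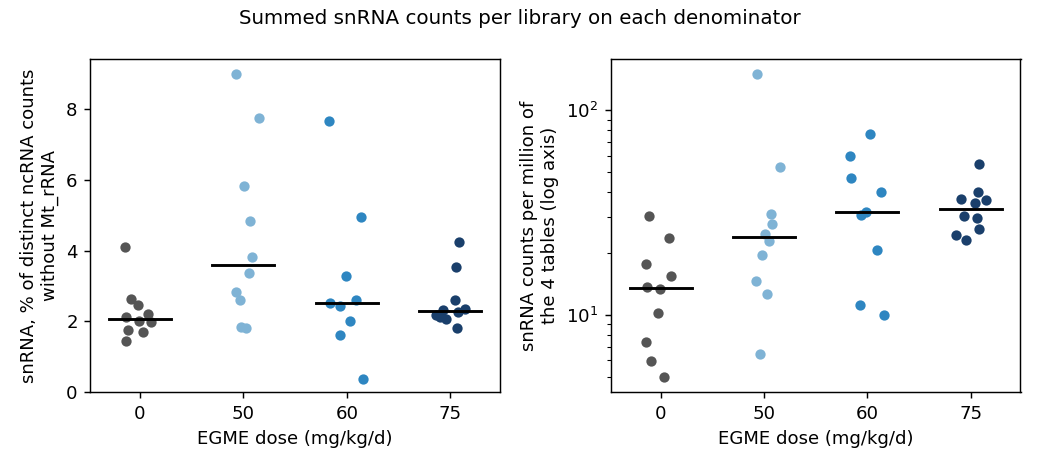
Summed snRNA counts of each library by dose (mg/kg/d), as a percentage of distinct ncRNA counts without Mt_rRNA (left) and per 1000000 counts of the 4 tables (right, log axis). Each point is 1 male and each bar a group median. The medians are 2.07%, 3.59%, 2.53% and 2.29% on the left, and 13.6, 23.96, 31.8 and 32.8 per 1000000 on the right.

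The main test was edgeR's quasi-likelihood test over all 39 libraries, and a row was called when its adjusted p was under 0.05. The filter on low counts let through 12 of the 33 patterns, from families 1, 2, 3, 4 and 6, among 85 ncRNA rows in all. At EGME50, 1 of the 12 snRNA patterns was called, and it was higher, while 20% of all 85 rows were called, all of them higher. At EGME60 0 of 12 were called (0 with an unadjusted p under 0.05, and 0 by DESeq2), against 40% of all rows (38.8% higher, 1.18% lower). At EGME75 0 of 12 were called (0 with an unadjusted p under 0.05, and 0 by DESeq2), against 75.3% of all rows (51.8% higher, 23.5% lower). For the slope on dose, 0 of 12 were called (0 with an unadjusted p under 0.05, and 0 by DESeq2), against 71.8% of all rows (52.9% higher, 18.8% lower). In this fit a smaller share of snRNA patterns than of all rows was called in each comparison, a difference that was not itself tested. At EGME50 the order turned with library sizes from the 4 tables (7 of 12 against 41.2%) and with Mt_rRNA kept (6 of 24 against 19.4%). It also turned there with every transcript kept as its own row (9 of 33 against 26 of 119) and with the wider filter used below (6 of 33 against 10.5%). With no filter it turned at EGME60 too (7 of 52, all higher, against 65 higher and 39 lower of 945). It did not turn at EGME50 with DESeq2 (2 of 12 against 22 of 85).

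The fold changes show where the class stood. The median log2 fold change of the 12 snRNA patterns against EGME0 was 0.65 at EGME50, -0.05 at EGME60 and -0.37 at EGME75. The slope was -0.21 over 75 mg/kg/d. Of the 12 patterns, 6 belonged to family 2 and 3 to family 6, so these medians weigh family 2 most. At EGME75 the medians of families 1, 2, 3, 4 and 6 were 0.04, -0.65, -0.30, 0.56 and 0.03. At EGME60 they were 0.39, -0.25, 0.10, 0.55 and 0.11, and for the slope 0.25, -0.43, -0.18, 0.60 and 0.06. The negative sign of the class median in these comparisons thus depended on the weight of family 2. The median over all 85 rows was 0.48, 1.10 and 1.44 at the 3 doses, and 1.44 for the slope. At EGME75 the 12 patterns ran from -0.69 to 0.56, and their 95% intervals together spanned -1.42 to 1.70. Changes inside these intervals could not be told from 0 at this depth.

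The sign of the snRNA median depended on the scaling. At EGME75 it was -0.37 with TMM, 0.29 with relative log expression (RLE) factors, -0.09 with library totals and 0.94 with library sizes from the 4 tables. The median of all rows moved with it, from 1.44 to 2.03, 1.59 and 2.94. The difference between both medians was -1.81 with TMM, -1.74 with RLE factors, -1.68 with library totals and -2.0003 with the 4 tables. It stayed between -2.02 and -1.60 when each of the 39 libraries was left out in turn. When every transcript was kept as its own row, the difference was -0.29 (33 snRNA rows of 119), and with no filter it was 0.02 (52 snRNA rows of 945). So the snRNA median, in which family 2 weighs most, lay below the median of all tested rows at EGME75 under each scaling. This gap depended on which rows were compared.

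With library sizes from the 4 tables, 7 of 12 snRNA patterns were called higher at EGME50 (41.2% of all rows called higher), 5 at EGME60 (63.5%) and 5 at EGME75 (62.4%), by edgeR. The slope was called higher for 6 (63.5%). With the Mt_rRNA rows kept in the scaling, 24 snRNA patterns were tested. Then 6 were called higher at EGME50 (19.4% of all rows), 2 higher at EGME60 (32.8%) and 7 lower at EGME75 (24.6% of all rows called lower).

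**Figure D2:**
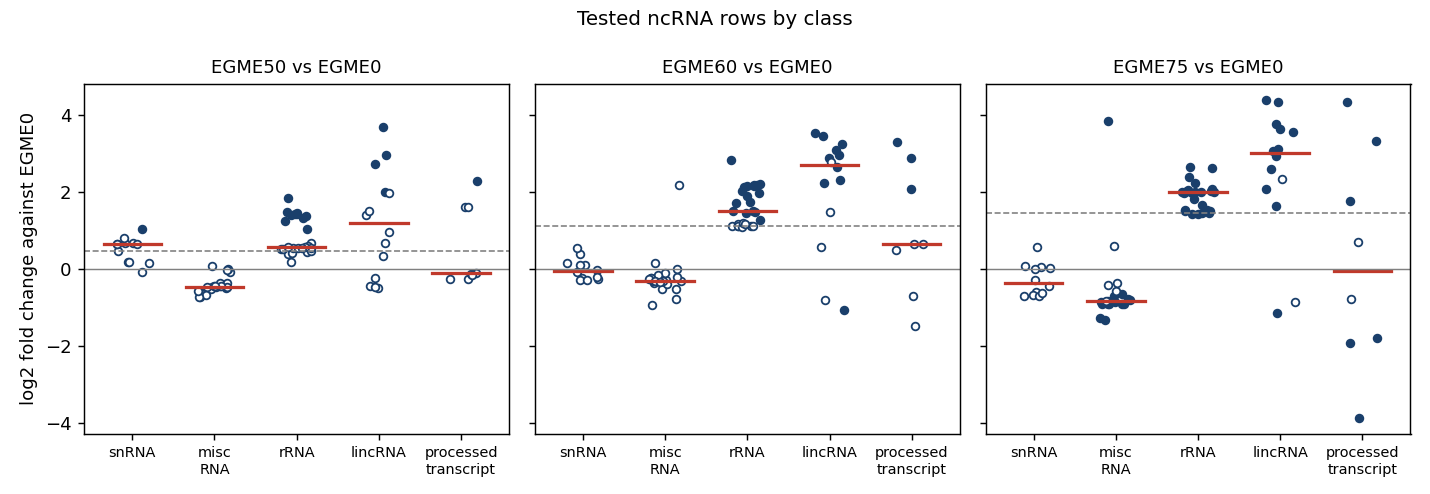
Log2 fold changes against EGME0 (y axis) of tested ncRNA rows in 5 classes at each dose, scaled with TMM. Filled points were called by edgeR, red bars are class medians, and the dashed line is the median of all 85 rows. At EGME75 the 12 open snRNA points lie around their median of -0.37, below the dashed line at 1.44.

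The other classes of small structural RNA in the table gave a frame for these values. At EGME75, misc_RNA rows, a class that takes in RNAs such as 7SK, Y RNA and vault RNA, had a median of -0.84, with 16 of 22 called lower and 1 higher. All 26 rRNA rows tested were called higher, with a median of 1.99. The long intergenic class (lincRNA) had 11 of 14 rows higher and 1 lower. None of the 34 distinct snoRNA, 4 scaRNA or 4 ribozyme patterns passed the filter. The snoRNAs and scaRNAs guide chemical modification of rRNA and snRNA. In the RNAcentral table, 29 snoRNA entries were tested, and 0 were called at EGME75 by edgeR (0 with an unadjusted p under 0.05, and 0 by DESeq2). Their median log2 fold change was 0.68 with TMM and -0.27 with RLE factors, so it had no fixed direction.

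Family 1, the pattern of 9 transcripts shown by ENSRNOT00000077081, was the pattern called at EGME50. Its levels were 11.9, 19.7 and 25.4 (lowest, median and highest) in EGME0 and 17.1, 29.2 and 109 in EGME50. In EGME60 they were 4.86, 24.5 and 39.4, and in EGME75 12.4, 19.3 and 26.9. At EGME50, 6 of the 10 males lay above the highest control, led by replicates 36 (109) and 20 (67.3), and the other 4 overlapped with it. EGME75 covered nearly the same range as EGME0. The log2 fold change at EGME50 was 1.05 (SE 0.33, 95% interval 0.38 to 1.72, adjusted p = 0.0211 by edgeR). At EGME75 it was 0.04 (95% interval -0.63 to 0.72, adjusted p = 0.921 by edgeR), and there it turned to -0.39 with Mt_rRNA kept, -0.04 with every row kept and -0.29 with chip as a block.

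The call at EGME50 rested on few libraries. It was lost without EGME0 replicate 25 (log2 fold change 0.97, edgeR adjusted p = 0.0682), without EGME50 replicate 11 (0.97, adjusted p = 0.0501) and without EGME50 replicate 36 (0.72, adjusted p = 0.105). In an edgeR fit with chip as a block the fold change was 0.69 (adjusted p = 0.172), and no snRNA pattern was called at any dose. Of all 85 rows, that fit called 1 at EGME50, against 17 in the main fit, so the loss there was not particular to snRNA. It called 28 rows higher at EGME60, and 34 higher and 14 lower at EGME75. Over all 39 omissions of a single library the fold change of ENSRNOT00000077081 at EGME50 ran from 0.72 to 1.56.

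The 6 patterns of family 2 had count similarities of 0.913 to 0.999. They were grouped by these counts, so their shared course follows from the grouping. For ENSRNOT00000087996 the lowest, median and highest levels were 9.75, 17.9 and 25.4 in EGME0, and 15.6, 23.96 and 60.6 in EGME50. They were 4.17, 11.6 and 27.4 in EGME60, and 3.89, 10.6 and 24.5 in EGME75. The groups overlapped throughout, and in EGME75 4 of 10 males (replicates 7, 15, 16 and 40) lay under the lowest control. Across the family the log2 fold change was 0.65 to 0.80 at EGME50, -0.29 to -0.08 at EGME60 and -0.69 to -0.44 at EGME75. The smallest adjusted p of the family by edgeR was 0.0522, 0.528 and 0.0803 at the 3 doses. ENSRNOT00000087996 had the smallest unadjusted p of any snRNA pattern at EGME75 (log2 fold change -0.69, 95% interval -1.42 to 0.04, edgeR adjusted p = 0.0803).

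That value moved with single libraries. ENSRNOT00000087996 at EGME75 was called lower without EGME0 replicate 25 (-0.95, edgeR adjusted p = 0.0470), EGME50 replicate 11 (-0.95, adjusted p = 0.0396), EGME60 replicate 30 (-0.88, adjusted p = 0.0370) or EGME75 replicate 23 (-0.85, adjusted p = 0.0474). In those fits 3 to 5 snRNA patterns were called lower. It was 0.05, 0.05 and 0.04 without EGME60 replicates 5, 21 and 38. It was 0.00063 with RLE factors and 0.75 with library sizes from the 4 tables, so no direction is given for this family at EGME75.

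Family 3, the pattern of 11 transcripts shown by ENSRNOT00000077425, had levels of 6.97, 14.5 and 50.6 in EGME0. In EGME50 its levels were 6.24, 17.96 and 29.99, in EGME60 4.42, 16.9 and 49.0, and in EGME75 0, 12.7 and 28.9. Every group spanned the medians of the others, and the highest values stood in EGME0 replicate 25 and EGME60 replicate 5. Its log2 fold change at EGME75 was -0.30 (95% interval -1.12 to 0.53, adjusted p = 0.496 by edgeR). The sign turned with RLE factors (0.33), with the 4 tables (0.92) and in DESeq2 (0.35). The 3 patterns of family 6 had log2 fold changes of 0.15 to 0.18 at EGME50, -0.02 to 0.14 at EGME60 and 0.01 to 0.08 at EGME75. Their smallest adjusted p at these doses was 0.830, by edgeR. Family 4 (ENSRNOT00000084988) had median levels of 8.30, 8.40, 12.7 and 13.4 in EGME0, EGME50, EGME60 and EGME75, with 1 library at 0 in each of EGME0, EGME50 and EGME75. Its log2 fold changes were 0.47, 0.55 and 0.56 at the 3 doses, with edgeR adjusted p = 0.536, 0.452 and 0.361.

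**Figure D3:**
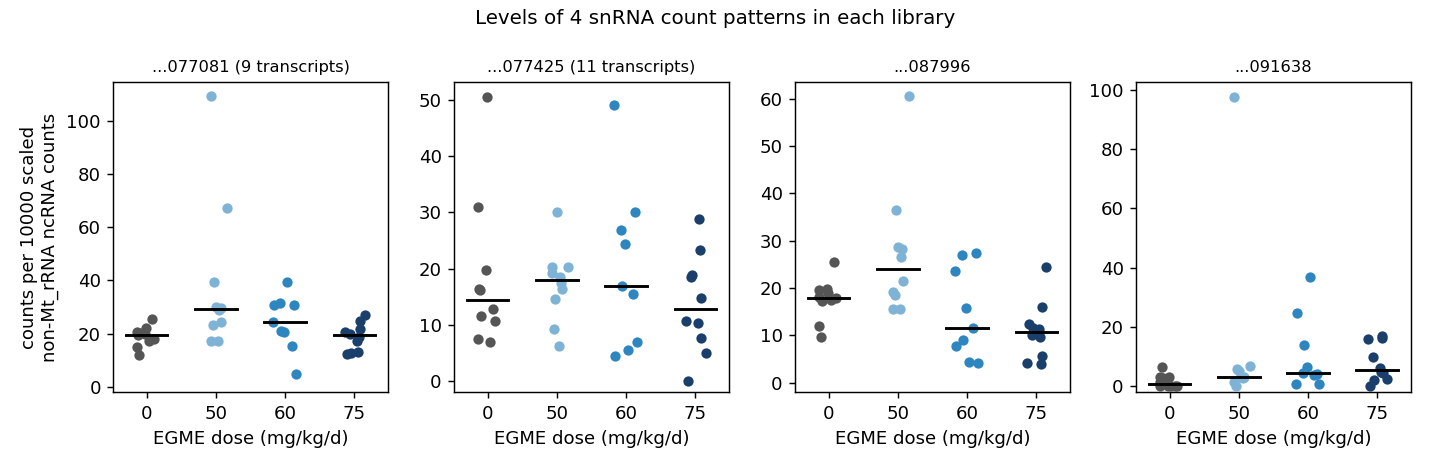
Levels of 4 snRNA patterns in each library (counts per 10000 scaled ncRNA counts without Mt_rRNA) by EGME dose in mg/kg/d. Points are single males and bars are group medians. In the first panel 6 of 10 EGME50 males lie above the highest control level of 25.4, and in the last panel EGME50 replicate 36 stands at 97.7.

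The filter removed 21 of the 33 patterns, among them all of family 5. So that every member was tested, the edgeR fit was repeated with rows of any class that had a summed count of at least 39 (247 rows), an alternative chosen after the data had been seen. At EGME50 6 of the 33 snRNA patterns were called higher (10.5% of all rows called higher), at EGME60 9 (45.3%), at EGME75 5 (47.4%) and for the dose trend 6 (49.4%). This filter also lets in rows that reach the limit through the dosed groups alone. Families 16 and 17 had no control counts, and the patterns of family 5 had 6 to 10, so their calls are partly fixed by the filter and these counts are a description only. No snRNA pattern was called lower in any of these comparisons by edgeR or by DESeq2. The median log2 fold change of the 33 was 0.51, 0.70 and 0.28 at the 3 doses, against 0.52, 1.55 and 1.68 over the 247 rows. All 5 patterns of family 5 were called at each dose and for the slope. The remaining calls were family 1 at EGME50, families 12 and 13 at EGME60, and the patterns without control counts (families 16 and 17 at EGME60, family 16 for the slope).

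Family 5 was scarce in control sperm. ENSRNOT00000091638, its pattern with the most counts, had 10 counts over the 10 control libraries, 73 in EGME50, 244 in EGME60 and 89 in EGME75. Its lowest, median and highest levels were 0, 0.748 and 6.50 in EGME0, with 5 libraries at 0, and 0, 3.17 and 97.7 in EGME50. They were 0.694, 4.48 and 36.8 in EGME60, and 0, 5.44 and 17.1 in EGME75. The groups overlapped, and several medians lay near the worth of 1 count. In EGME75, 4 of 10 males lay above the highest control (replicates 7, 15, 32 and 40). The log2 fold change was 2.38 at EGME50 (95% interval 0.75 to 4.01, edgeR adjusted p = 0.0492), 2.45 at EGME60 (0.83 to 4.06, adjusted p = 0.0127) and 1.99 at EGME75 (0.36 to 3.62, adjusted p = 0.0350). The slope was 2.18 over 75 mg/kg/d (95% interval 0.48 to 3.87, edgeR adjusted p = 0.0258). Over the 5 patterns the fold changes were 2.33 to 2.79, 2.43 to 2.96 and 1.99 to 2.55 at the 3 doses. All of these values carry the limit of the filter given above, so the adjusted p values are a description only.

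The family's high values were gathered on a few chips. EGME50 replicate 36, EGME60 replicate 38 and EGME75 replicate 40 shared chip 4, and their levels of ENSRNOT00000091638 were 97.7, 24.9 and 17.1. On chip 3 the levels were 0, 36.8 and 9.99 (EGME50 replicate 3, EGME60 replicate 22 and EGME75 replicate 32), and on chip 8 they were 3.21, 16.4 and 15.95. Chips 3, 4 and 8 carried no control library, and outside them the highest level was 13.9. Of the 416 counts of this transcript, 61.8% came from 3 libraries, EGME50 replicate 36 and EGME60 replicates 22 and 38. In the edgeR fit with chip as a block the fold changes of ENSRNOT00000091638 were 1.33, 1.20 and 1.39 at the 3 doses (adjusted p = 0.452, 0.250 and 0.180), and 0 of the 33 patterns were called in any comparison. The share of all rows called in that fit is not given here. Chips of 3 libraries hold too few samples for values within a chip.

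Without the 3 libraries of chip 4, ENSRNOT00000091638 had a log2 fold change of 1.22 at EGME50 (edgeR adjusted p = 0.225), 2.39 at EGME60 (0.00286) and 2.08 at EGME75 (0.00577). Leaving out EGME50 replicate 36 alone took the EGME50 value to 0.64 (edgeR adjusted p = 0.626) and the number of patterns called there from 6 to 0. The EGME50 call was also lost without any of the 9 control replicates 1, 2, 9, 10, 17, 18, 25, 33 and 34, with fold changes of 2.16 to 2.41. Leaving out 1 of 12 EGME60 or EGME75 libraries took its edgeR adjusted p to between 0.0503 and 0.0542. These were EGME60 replicates 13, 14, 21, 29 and 30 and EGME75 replicates 7, 15, 16, 23, 31, 32 and 40. The EGME75 call was lost without EGME0 replicates 1, 9, 10, 17 or 18 or EGME75 replicates 7, 15 or 40, with fold changes of 1.78 to 1.96. The EGME60 call and the slope held in all 39 omissions. Each omission kept the same filtered rows, so this carries the same limit and adds no support. In EGME50 replicate 36, EGME60 replicate 22 and EGME60 replicate 38 the germ cell miRNAs made up 11.1%, 10.9% and 12.0% of miRNA counts, below the lowest control share of 19.8%. Their blood cell shares were 0.119%, 1.77% and 0.463%, the first inside the control range and the others above it. Their epithelial shares were 3.33%, 3.01% and 1.42%, and their muscle shares 4.58%, 3.63% and 8.48%, each above every control. The shares in some libraries with lower levels of ENSRNOT00000091638 are given for description only. The germ cell share was 9.05% in EGME75 replicate 23 (level 2.45). In EGME75 replicate 24 it was 6.47% of only 139 miRNA counts. The level of 0 in that library came from 421 ncRNA counts, too few to show a low level. In EGME60 replicate 5 (level 0.845) it was 13.2%, with 2.17% blood cell and 6.66% muscle miRNAs. The highest muscle share, 11.7%, was in EGME60 replicate 29 (level 6.59). Whether other cells had a part in the family's levels was not tested.

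The remaining families stayed below the threshold in most comparisons. The 2 patterns of family 7 had log2 fold changes of 0.08 to 0.19 at EGME50, 0.91 to 1.04 at EGME60 and -0.36 to -0.32 at EGME75. None was called by edgeR with this filter. The 5 patterns of family 8 ran from -0.33 to -0.05, -0.45 to -0.08 and -0.03 to 0.46 at the 3 doses, and none was called. Families 9, 10, 11, 14 and 15, single patterns of 80 to 196 counts, had fold changes from -0.35 to 2.01 at EGME50, 0.34 to 1.55 at EGME60 and 0.10 to 1.22 at EGME75, also without a call. Family 12 (112 counts) was called at EGME60 (1.74, edgeR adjusted p = 0.0490), and so was family 13 (99 counts, 2.42, edgeR adjusted p = 0.0473). At these counts the 95% intervals often spanned more than 2 log2 units.

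A pair of single patterns, families 16 and 17, had 0 counts in both EGME0 and EGME50. The pattern of 41 counts had 29 counts in 4 of 9 EGME60 libraries, 20 of them in replicate 22, and 12 counts in 2 of 10 EGME75 libraries, 10 of them in replicate 7. The pattern of 40 counts had 36 counts in 3 of 9 EGME60 libraries, 24 of them in replicate 38, and 4 counts in 2 EGME75 libraries. A single library thus held most of each sum at EGME60, and no fold change is given.

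**Figure D4:**
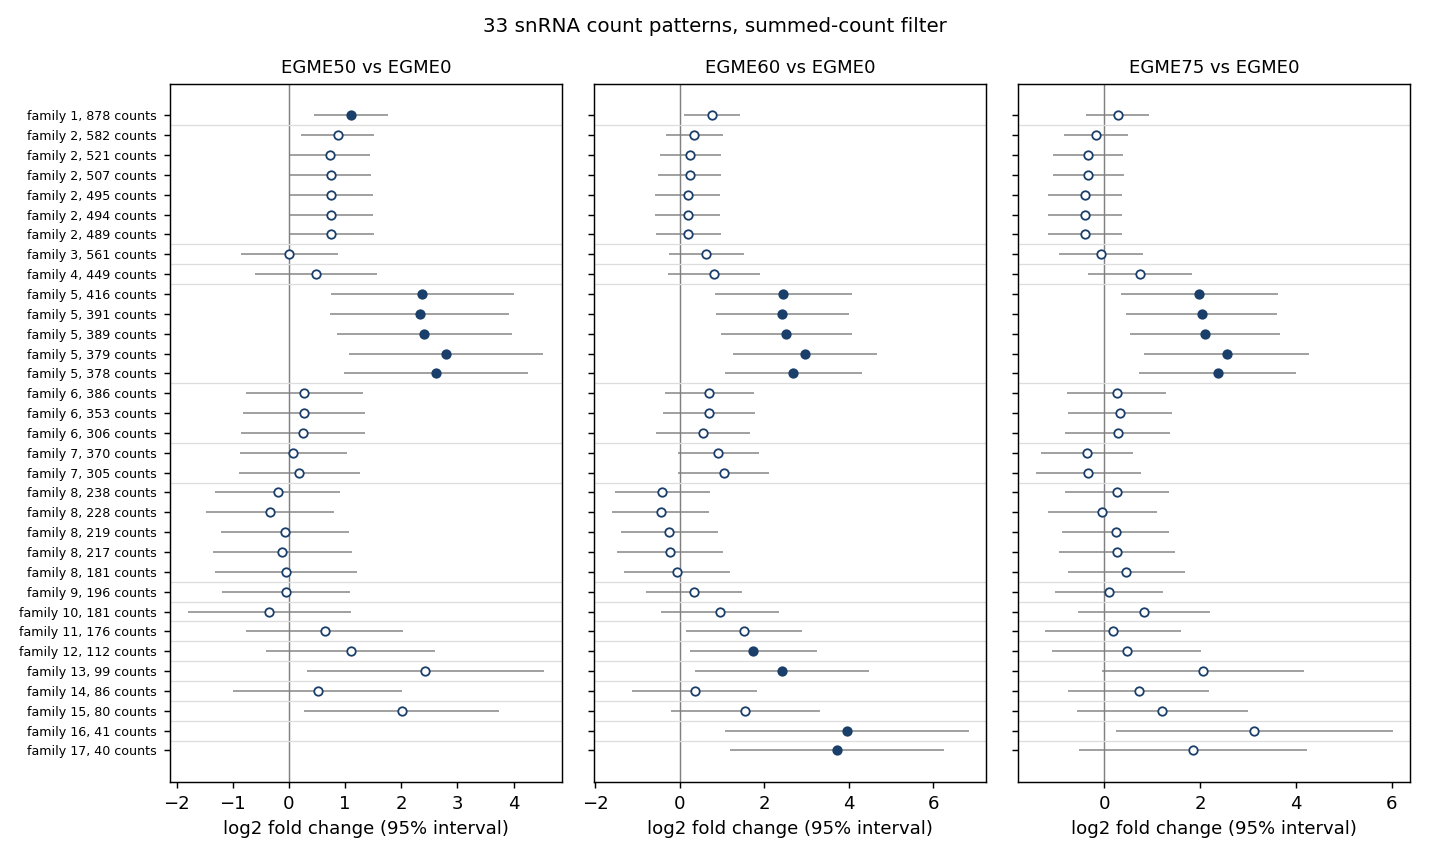
Log2 fold changes (points) with 95% intervals (lines) of all 33 snRNA patterns at each dose, in the edgeR fit with the summed-count filter, grouped by family and labelled with their summed counts. Filled points were called. The 5 patterns of family 5 are filled at each dose, and those of family 2 lie between -0.40 and 0.87; the 2 lowest rows have no value at EGME50, where both groups had 0 counts.

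A second deposited table, of RNAcentral entries, also lists snRNA, and a read may have been counted in both. It held 433 entries labelled snRNA, of which 61 had at least 39 counts and 52 of those were distinct. No member of the ncRNA set had the same counts as a tested RNAcentral entry. The highest similarity of any member to one was 0.801. At EGME75, 22 snRNA entries were tested by edgeR within that whole table, and 11 were called higher and 3 lower. Over all 2664 entries tested, 19.6% were called higher and 17.8% lower (37.4% in either direction). The median log2 fold change of the 22 was 1.48, and that of all entries was -0.63. The entries are not separate observations either. Joined at a count similarity of at least 0.9, they formed 13 groups, of which 6 held an entry called higher and 2 an entry called lower. The split of calls was 7 higher and 4 lower with RLE factors or library totals, 8 higher and 4 lower in DESeq2, and 16 higher and 1 lower of 223 entries with no filter. The share over all entries in these fits is not given here, so these splits are not read as changes of snRNA alone.

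Of the 11 higher entries, 6 had 429 to 482 counts and log2 fold changes of 4.72 to 5.13. These 6 formed 1 group, with pairwise similarities of at least 0.942, and count as 1 signal. URS0000631188 was the highest of them. Its lowest, median and highest levels were 0, 0.125 and 1.20 counts per 1000000 in EGME0, and 0, 0.675 and 3.14 in EGME50. They were 0, 3.41 and 8.81 in EGME60, and 0, 12.0 and 52.8 in EGME75. In EGME75, 8 of 10 males lay above the highest control, and replicates 24 and 40 were at 0. The log2 fold change was 5.13 (95% interval 3.6004 to 6.67, edgeR adjusted p = 7.11e-07). It was called under every alternative tried. Each control library held only 0 to 3 counts of this entry, and at most 4 of any other entry in its group. These entries thus passed the count filter through dosed libraries, so their calls are partly fixed by it and are a description only.

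The entry with the most counts, URS0000724F4B (4265 counts), had levels of 7.36, 20.1 and 45.2 counts per 1000000 in EGME0 and 18.4, 56.2 and 103 in EGME75. Its log2 fold change was 1.35 (95% interval 0.40 to 2.31, edgeR adjusted p = 0.0228). The call was lost with RLE factors (0.48), library totals (0.43), no filter (1.25), chip as a block (1.13) and DESeq2 (0.52). The lowest of the 3 lower entries was URS00006C3F76, with levels of 0, 2.83 and 6.26 counts per 1000000 in EGME0 and 0, 0.818 and 1.62 in EGME75. Its log2 fold change was -1.78 (95% interval -2.78 to -0.78, edgeR adjusted p = 0.00386). For URS000065D315 the levels were 0, 4.51 and 9.62 in EGME0 and 0, 1.68 and 2.69 in EGME75. Its log2 fold change was -1.41 (95% interval -2.35 to -0.47, edgeR adjusted p = 0.0161). Both lower calls were lost with chip as a block (-1.59 and -1.05) and with no filter (-1.84 and -1.44). URS000065D315 also lost its call without EGME50 replicates 4, 27 or 28 or EGME60 replicate 29 (-1.27 to -1.25, edgeR adjusted p 0.0527 to 0.0598).

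**Figure D5:**
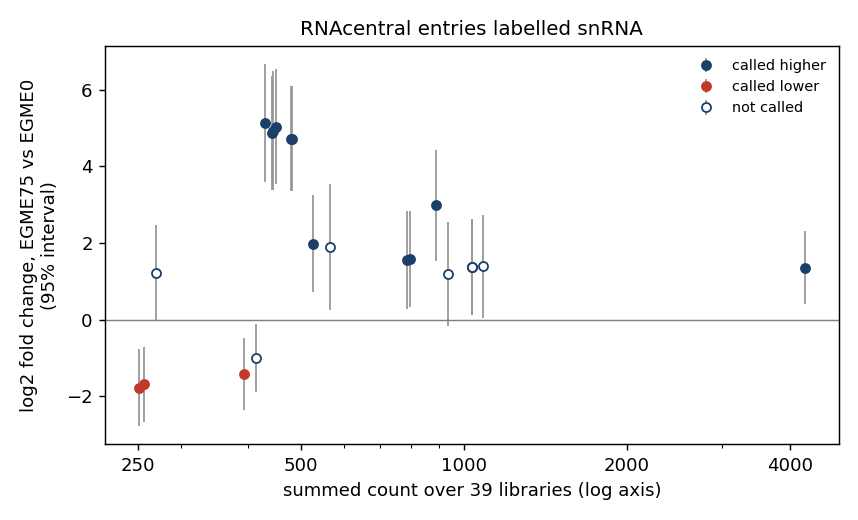
Log2 fold change at EGME75 against EGME0 (y axis, with 95% intervals) and summed count over 39 libraries (x axis, log) of the 22 tested RNAcentral entries labelled snRNA. Filled blue points were called higher and filled red points lower by edgeR. The 6 entries with 429 to 482 counts lie between 4.72 and 5.13.

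At EGME75, 0 of 12 patterns were thus called in the ncRNA table and 14 of 22 entries in the RNAcentral table. Each table was scaled on its own, and the difference between them was not tested. In the edgeR fit with chip as a block, 7 of the 22 RNAcentral entries were called, all higher, and 0 of the 12 ncRNA patterns. Of all 85 ncRNA rows, 34 were then called higher and 14 lower. The share over all RNAcentral entries in that fit is not given here.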

How the data were processed

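The authors deposited 4 tables of raw read counts, named as sense-strand counts (mature miRNA, tRNA genes, Ensembl ncRNA and RNAcentral), and a check found only whole numbers in them. The submitters' processing notes name FastQC, Bowtie and DESeq2, with no versions. How reads that fit several features were counted is not given in the sources used here. Libraries were made from 10 ng of RNA, per the labels.

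Rows of 1 class with identical counts were collapsed and the 2 Mt_rRNA rows dropped. Counts were tested with edgeR 4.0.16 (R 4.3.3, limma 3.58.1): TMM, filterByExpr, robust quasi-likelihood, two-sided, Benjamini-Hochberg over all 85 rows of the ncRNA table or 2664 of RNAcentral. Standard errors are the log2 fold change over the square root of F. DESeq2 1.42.0 was an alternative. The tests were also run on simulated counts in which a minority of rows changed, in both directions. That run does not bear on the choice of scaling at EGME75, where most ncRNA rows were called.

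Named were the snRNA patterns with the 10 highest summed counts and the 5 highest and 5 lowest called changes with a mean of at least 10 counts, or the smallest p where none was called; identifiers are printed for at most 2 a direction and the rest given by family. The RNAcentral entries and families were chosen after their values were seen. The members and lists were chosen with earlier results of these data known. Each male is a separate animal. No sequences or coordinates were used.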

Additional observations from a re-analysis of the deposited data

Results flagged for a closer look

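In groups of 9 or 10 males, 40 checks for a library standing apart from its group (Dixon's gap criterion) were made on the snRNA share and the named rows. The criterion was met in 7 checks, more than once by EGME50 replicate 36. Chance gives about 1 in 20 such checks. The snRNA share of ncRNA counts in EGME0 replicate 1 was 4.10%, and the next control was at 2.63%. EGME50 replicate 36 stood apart for ENSRNOT00000091638 (97.7 counts per 10000, next 6.73) and for ENSRNOT00000084988 (53.6, next 13.97). EGME50 replicate 20 stood apart for ENSRNOT00000087996 (60.6, next 36.5). EGME0 replicate 26 had the highest control level of ENSRNOT00000091638 (6.50, next 3.25), from 6 counts. Among the RNAcentral entries, URS000065D315 was at 10.4 counts per 1000000 in EGME60 replicate 6 (next 3.72), from 9 counts. URS0000631188 was at 52.8 in EGME75 replicate 7 (next 19.9), from 72 counts.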

How the results depend on the processing

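No paired analysis was possible because no replicate number occurs in more than 1 group. Counts of called snRNA patterns are given in the order EGME50, EGME60, EGME75 and slope, and were 1, 0, 0 and 0 of 12 in the main edgeR fit. Over all 85 rows, 20%, 40%, 75.3% and 71.8% were called in that fit. The snRNA counts were 2, 0, 0 and 0 of 12 with RLE factors, with library totals and with DESeq2. With RLE factors 21, 43, 46 and 46 of 85 rows were higher and 0, 0, 6 and 7 lower. With library totals 23, 37, 45 and 45 were higher and 0, 11, 18 and 17 lower. DESeq2 called 22, 42, 45 and 46 higher and 0, 0, 5 and 3 lower. Without both shallow libraries the snRNA counts were 2, 0, 0 and 0 of 13. Of all 88 rows in that fit, 19, 33, 43 and 43 were higher and 0, 0, 21 and 13 lower. The snRNA counts were 6, 2, 7 (all lower) and 0 of 24 with Mt_rRNA kept, where 33 of all 134 rows were lower at EGME75. In the same fit 26, 44, 63 and 63 rows were higher. Library sizes from the 4 tables gave 7, 5, 5 and 6 of 12 (35, 54, 53 and 54 of 85 rows higher). No filter gave 2, 7, 5 and 8 of 52, all higher but 1 for the slope. Of all 945 rows in that fit, 16, 65, 115 and 169 were higher and 2, 39, 76 and 88 lower. Keeping every row gave 9, 0, 0 and 0 of 33 (26, 37, 51 and 50 of 119 rows higher, and 0, 0, 7 and 2 lower). The summed-count filter gave 6, 9, 5 and 6 of 33 (26, 112, 117 and 122 of 247 rows higher). The snRNA counts were 0 in each with chip as a block (1, 28, 34 and 41 of 85 rows higher) or without chip 4 (16, 42, 45 and 45 of 88). Rows called lower in these fits were 0, 0, 14 and 15 with chip as a block and 0, 0, 18 and 4 without chip 4. Leaving out each library in turn gave 0 to 7, 0 to 1, 0 to 5 and 0 to 1. The extremes were 7 at EGME50 without EGME50 replicate 3 and 5 lower at EGME75 without EGME50 replicate 11 or EGME60 replicate 30. With the summed-count filter, the counts were 8, 19, 19 and 18 with library sizes from the 4 tables, 0 in each with chip as a block, 5 at EGME60 with DESeq2, and 0 to 14, 7 to 11, 3 to 6 and 5 to 8 over the omissions, with 14 at EGME50 without EGME50 replicate 3, EGME60 replicate 5 or EGME75 replicate 39. RNAcentral calls ran from 12 to 19 over the omissions and were 7 with chip as a block. Shares over all rows are not given for the omissions, the summed-count alternatives or these RNAcentral fits. Those counts are therefore not read as changes of snRNA alone.

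At EGME75, the log2 fold change of ENSRNOT00000077081 turned to -0.39 (Mt_rRNA kept), -0.038 (every row kept) and -0.29 (chip block), and ran from -0.28 to 0.73 over the omissions. ENSRNOT00000077425 turned to 0.33 (RLE), 0.92 (4 tables) and 0.35 (DESeq2), and ran from -0.70 to 0.51. ENSRNOT00000087996 turned to 0.00063 (RLE) and 0.75 (4 tables), and ran from -0.95 to 0.048. The median snRNA share in EGME0, EGME50, EGME60 and EGME75 was 0.0105%, 0.0281%, 0.0443% and 0.0787% of the ncRNA table with Mt_rRNA, and 0.00136%, 0.00240%, 0.00318% and 0.00328% of the 4 tables. With every row summed it was 4.15%, 7.21% and 4.14% in EGME0, EGME50 and EGME75. Apart from the construction of each alternative, the cause of these shifts was not tested. The depth, a median of 191 snRNA counts per library, limits all of these values.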
